A study of Mus musculus with 15 samples.

Results

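The transcripts described here are those of 10 genes out of the 54456 gene names counted. They encode 9 proteins of the epithelial tight junction, namely the claudins Cldn1, Cldn3, Cldn4, Cldn7 and Cldn8, occludin (Ocln), ZO-1 (Tjp1), JAM-A (F11r) and cingulin (Cgn), together with the epithelial adhesion molecule Epcam. They are the rows of the count table with these names. All 10 passed the filter on low counts, and the lowest count of any of them in any library was 110. The study asked whether an epithelial-mesenchymal transition (EMT), the loss of epithelial junctions and gain of mesenchymal traits, takes place while mammary epithelium migrates as a group. Organoids, small clusters of epithelial cells, came from the mammary glands of wild-type mice and were confronted with beads that carried fibroblast growth factor 10 (FGF10) or, as the control protein, bovine serum albumin (BSA). The 5 groups were organoids at 0 h, with FGF10 beads at 36 h, with BSA beads at 36 h, with FGF10 beads at 72 h and with BSA beads at 72 h, with 3 libraries each. All cultures shared DMEM/F12 medium with a glutamine dipeptide, insulin-transferrin-selenium and penicillin-streptomycin, so the BSA organoids were also grown with insulin. The labels give no strain, age or number of animals, and they do not say whether libraries of a group came from separate animals or cultures, so every p-value measures only the spread between these libraries.

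Tight junctions seal the space between neighbouring epithelial cells near their apical side. Claudins and occludin span the membrane and build the sealing strands, with some claudins tightening the barrier and others opening it to ions or water. JAM-A is an immunoglobulin-like adhesion receptor of the same site, and ZO-1 and cingulin lie on the cytoplasmic side, where they tie the strands to actin. EpCAM is a membrane glycoprotein of simple epithelia that binds claudin-7 and is a usual marker for sorting mammary epithelial cells, in which luminal cells carry more of it than basal cells.

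Libraries held 11965322 to 24261233 assigned fragments, and levels are given as CPM, the usual depth-scaled count, after TMM scaling. A gene was called when the adjusted p of edgeR's quasi-likelihood test (Benjamini-Hochberg over 18140 tested genes) was under 0.05. Epithelial markers stood at high levels: 10 luminal markers summed to 12164 to 39154 CPM over the libraries, and Krt18 ran from 3747 to 14007 CPM. None of these or of 10 basal markers was at 0 in any group, but that also held for 10 fibroblast and 10 endothelial markers. Other cell types were present at lower levels. The summed level of 10 immune markers was 76.9 to 418 CPM in cultured libraries, against 1428 to 1851 CPM at 0 h, and that of 5 red blood cell markers was 1.43 to 3.92 CPM, against 43.3 to 133 CPM at 0 h. BSA organoids at 72 h did not share the low levels of every type: their adipocyte sum was 427 to 434 CPM (other cultured groups 11.3 to 87.3 CPM), against 65.9 to 553 CPM at 0 h, and their endothelial sum 94.7 to 221 CPM (other cultured groups 18.2 to 75.6 CPM), against 66.0 to 367 CPM at 0 h. Sums are carried by their highest genes, and Cd74 alone averaged 1214 CPM of the immune sum at 0 h. With BSA at 72 h against 0 h, 5 of 9 adipocyte markers were called higher and 0 lower. Of 7 immune markers 2 were higher and 4 lower there, and of 10 endothelial markers 0 higher and 1 lower (all genes 12.2% higher, 13% lower). In RNA from whole organoids, fewer cells of a type and less RNA per cell cannot be told apart. The BSA 72 h libraries numbered 2_1 and 2_2 share a number in the labels and may share a source.

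Most of the 10 transcripts differed between cultured organoids and those at 0 h. With FGF10 at 36 h, 7 of 10 were called against 0 h (2 higher, 5 lower), where 39.8% of all tested genes were called (19.3% higher, 20.5% lower). With BSA at 36 h, 7 were called (1 higher, 6 lower), against 27.1% of all genes (12.7% higher, 14.4% lower). With FGF10 at 72 h, 7 were called (1 higher, 6 lower), against 29.9% of all genes (13.8% higher, 16% lower). With BSA at 72 h, 6 were called (1 higher, 5 lower), against 25.2% of all genes (12.2% higher, 13% lower). Libraries did not overlap those at 0 h for 8 members with FGF10 at 36 h (44.9% of all genes), 7 with BSA at 36 h (40.7%), 8 with FGF10 at 72 h (47.9%) and 9 with BSA at 72 h (45.4%). The median log2 difference of the 10 members ran from -0.75 to -0.62 over these 4 comparisons, while the median of all tested genes lay between -0.02 and 0.01. These comparisons share the 3 libraries at 0 h. Cldn1 was higher in all 4, a pattern of 5.47% of tested genes. Cldn3, Cldn8, Ocln, F11r and Epcam were lower in all 4, a pattern of 7.39% of tested genes.

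**Figure D1:**
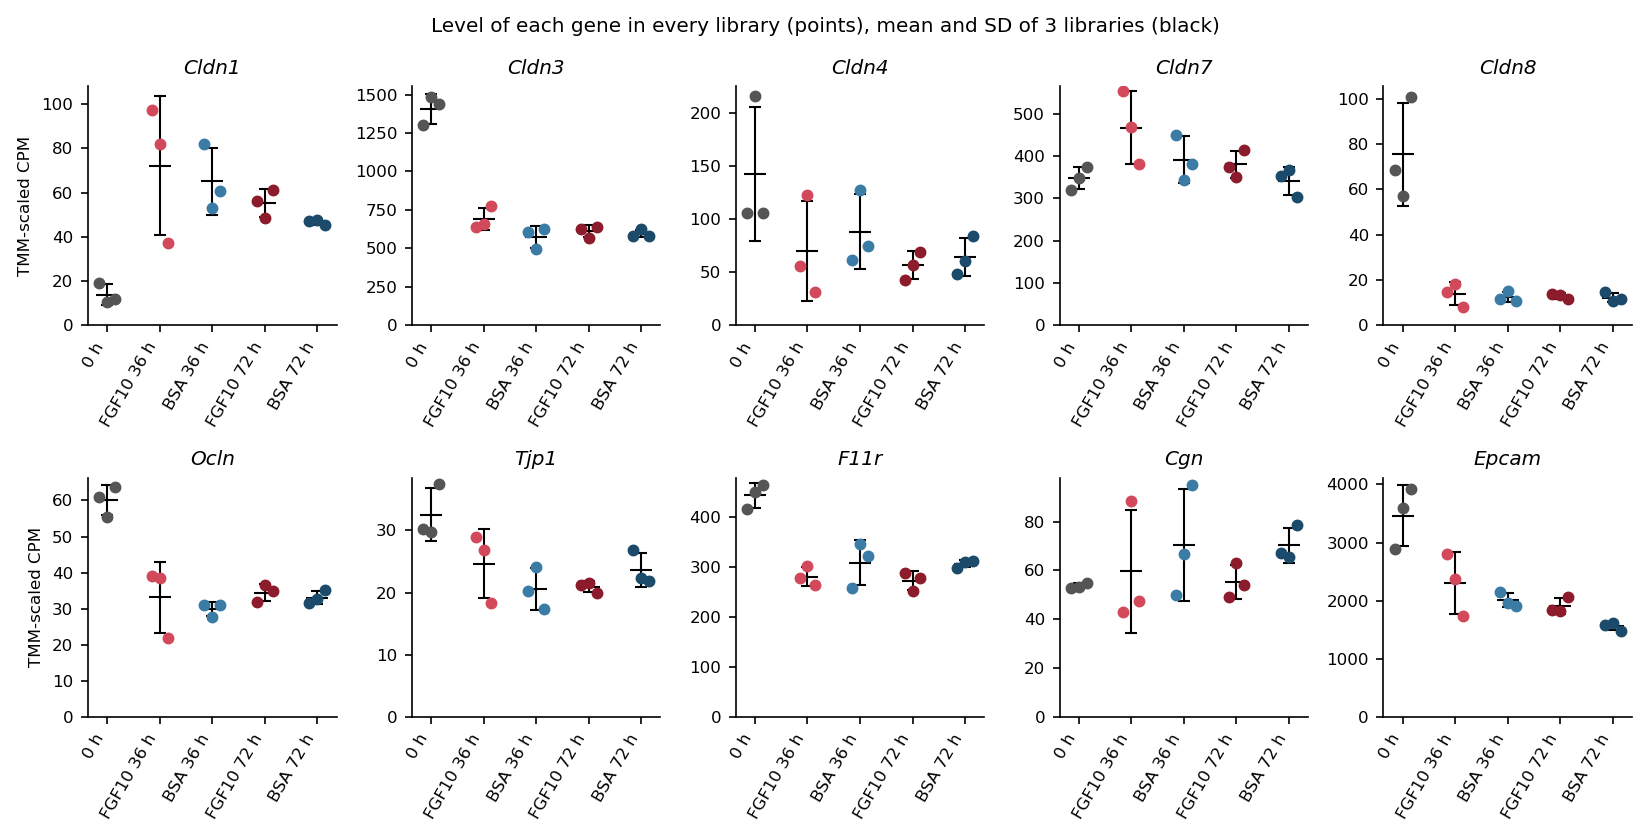
TMM-scaled CPM (vertical axis, from 0) of each of the 10 genes in every library (points), by group (horizontal axis), with the mean and SD of 3 libraries in black. Cldn1 lies lowest at 0 h, Cldn3, Cldn8, Ocln, Tjp1, F11r and Epcam lie highest there with no overlap, and the FGF10 and BSA points overlap for 9 genes at 36 h and for 5 at 72 h.

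Among the strand-forming claudins, Cldn1 and Cldn8 moved furthest, in opposite directions. Cldn1, which encodes a barrier-tightening claudin, had 19.3, 10.6 and 11.8 CPM in the 3 libraries at 0 h. At 36 h it had 97.2, 82.1 and 37.0 CPM with FGF10 and 82.0, 52.9 and 60.5 CPM with BSA, and at 72 h it had 56.1, 48.4 and 61.2 CPM with FGF10 and 47.0, 47.7 and 45.1 CPM with BSA. Every cultured library lay above every library at 0 h, and the lowest of the cultured ones was FGF10 36 h replicate 4. The rise over 0 h was 5.12-fold with FGF10 and 4.63-fold with BSA at 36 h, and 3.92-fold with FGF10 and 3.31-fold with BSA at 72 h. Adjusted p ran from 8.9e-05 to 0.00116, and the call held under all 23 alternatives of the analysis in each of the 4 comparisons.

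Cldn8, a claudin best known from the kidney collecting duct, fell by more than any other of the 10. Its libraries had 68.5, 57.1 and 101 CPM at 0 h. At 36 h they had 14.9, 18.3 and 8.29 CPM with FGF10 and 11.8, 15 and 10.9 CPM with BSA, and at 72 h 13.9, 13.3 and 11.6 CPM with FGF10 and 14.5, 10.7 and 11.4 CPM with BSA. The highest cultured library reached 18.3 CPM, so the groups did not overlap. The fitted falls were 5.46-fold with FGF10 at 36 h, 6.02-fold with BSA at 36 h, 5.85-fold with FGF10 at 72 h and 6.2-fold with BSA at 72 h (adjusted p 8.5e-06 to 1.2e-05).

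Cldn3, a barrier-forming claudin of simple epithelia, was the most abundant claudin per kilobase of exon in every group. It had 1299, 1486 and 1438 CPM at 0 h, then 639, 659 and 775 CPM with FGF10 and 604, 494 and 623 CPM with BSA at 36 h. At 72 h the values were 629, 570 and 641 CPM with FGF10 and 582, 624 and 581 CPM with BSA. All 12 cultured libraries lay below the 3 at 0 h. The fall was 2.04-fold with FGF10 and 2.45-fold with BSA at 36 h, and 2.29-fold with FGF10 and 2.36-fold with BSA at 72 h (adjusted p 1.8e-05 to 7.9e-05). An exon of Wbscr25 on the opposite strand overlaps Cldn3 over 40 bases, 3.18% of its exon length, and the counting did not use strand.

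Cldn7, the claudin that binds EpCAM, was lower by test in none of the 4 comparisons. Its 3 libraries at 0 h had 321, 349 and 375 CPM. With FGF10 at 36 h it had 553, 468 and 381 CPM, all above 0 h, and with BSA at 36 h 451, 343 and 381 CPM, which overlapped it. At 72 h it had 375, 351 and 415 CPM with FGF10 and 353, 366 and 304 CPM with BSA. The difference from 0 h was called only for FGF10 at 36 h (1.34-fold higher, log2 0.43 ± 0.16 (SE), adjusted p = 0.0445). That call was lost under 16 of 23 alternatives, with adjusted p up to 0.204 without FGF10 36 h replicate 1 (range over the alternatives 0.00686 to 0.204). It was also lost without any 1 of the 3 libraries at 0 h, with 0.122 without replicate 1, 0.0973 without replicate 2 and 0.0592 without replicate 4, and with 0.072 without FGF10 36 h replicate 3. Leaving out a library of another group lost it as well for BSA 36 h replicate 3, for each BSA 72 h library and for each FGF10 72 h library (0.0514 to 0.0648).

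Cldn4, a claudin of many secretory epithelia, was called in none of the 4 comparisons and varied widely between libraries. It had 106, 216 and 106 CPM at 0 h, 55.7, 123 and 31.4 CPM with FGF10 and 61.5, 128 and 75.2 CPM with BSA at 36 h, and 43.1, 56.9 and 69.5 CPM with FGF10 and 48.8, 60.4 and 84.5 CPM with BSA at 72 h. Replicate 2 at 0 h was high, and the 36 h groups overlapped the 0 h group while the 72 h groups did not. The log2 differences from 0 h were -1.02 ± 0.47 with FGF10 at 36 h, -0.69 ± 0.47 with BSA at 36 h, -1.34 ± 0.47 with FGF10 at 72 h and -1.14 ± 0.47 with BSA at 72 h (SE), with adjusted p of 0.103, 0.304, 0.0517 and 0.101. Without FGF10 36 h replicate 3, the first of these was -1.71 with adjusted p = 0.0112 (range over the alternatives 0.0112 to 0.366). The FGF10 72 h difference was called under 9 of 23 alternatives (range 0.00407 to 0.2), among them without 0 h replicate 1 (0.0487), BSA 36 h replicate 2 (0.0455), or FGF10 36 h replicate 3 (0.0198) or 4 (0.0308). The BSA 72 h difference was called under 4 of 23 (range 0.0103 to 0.328), among them without FGF10 36 h replicate 3 (0.0436).

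Occludin, JAM-A and EpCAM transcripts all fell. Ocln had 61.0, 55.5 and 63.7 CPM at 0 h, 39.1, 38.6 and 21.8 CPM with FGF10 and 31.1, 27.6 and 30.9 CPM with BSA at 36 h, and 31.9, 36.6 and 34.8 CPM with FGF10 and 31.5, 32.6 and 35.1 CPM with BSA at 72 h. No cultured library overlapped the 0 h group, and FGF10 36 h replicate 4 was the lowest. The falls in Ocln were 1.81-fold with FGF10 and 2.01-fold with BSA at 36 h and 1.75-fold with FGF10 and 1.82-fold with BSA at 72 h (adjusted p 6.2e-04 to 0.00263).

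F11r had 416, 451 and 464 CPM at 0 h, 277, 302 and 264 CPM with FGF10 and 258, 347 and 322 CPM with BSA at 36 h, and 289, 252 and 277 CPM with FGF10 and 298, 310 and 312 CPM with BSA at 72 h. Again the 12 cultured libraries lay below all 3 at 0 h. Its falls were 1.58-fold with FGF10 and 1.44-fold with BSA at 36 h and 1.63-fold with FGF10 and 1.45-fold with BSA at 72 h (adjusted p 0.00103 to 0.0085). The calls of Cldn3, Cldn8, Ocln and F11r held under all 23 alternatives in each of the 4 comparisons.

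Epcam was the most abundant of the 10 per kilobase of exon in every group. Its libraries had 2882, 3590 and 3919 CPM at 0 h, 2799, 2369 and 1736 CPM with FGF10 and 2147, 1960 and 1913 CPM with BSA at 36 h, and 1830, 1825 and 2065 CPM with FGF10 and 1587, 1606 and 1479 CPM with BSA at 72 h. The FGF10 36 h libraries spread widest among the cultured groups, replicate 1 coming close to the lowest library at 0 h, and the BSA 72 h libraries were the lowest. Epcam fell 1.51-fold with FGF10 (adjusted p = 0.0196) and 1.73-fold with BSA (0.00539) at 36 h, and 1.82-fold with FGF10 (0.00266) and 2.22-fold with BSA (3.8e-04) at 72 h. The FGF10 36 h call was lost without 0 h replicate 2 (adjusted p = 0.0555), without 0 h replicate 4 (0.0782) and when the other groups were left out of the model (0.159), within a range of 0.00206 to 0.159 over the alternatives. The other 3 calls held under all 23.

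Of the plaque proteins, Tjp1 fell in 2 of 4 comparisons and Cgn was called in none. Tjp1 had 30.3, 29.8 and 37.5 CPM at 0 h, 28.9, 26.8 and 18.3 CPM with FGF10 and 20.3, 24.1 and 17.4 CPM with BSA at 36 h, and 21.2, 21.6 and 19.9 CPM with FGF10 and 26.8, 22.3 and 21.9 CPM with BSA at 72 h. All cultured libraries were below 0 h, by little for FGF10 36 h replicate 1. It fell 1.58-fold with BSA at 36 h (adjusted p = 0.011) and 1.56-fold with FGF10 at 72 h (0.012). The log2 differences with FGF10 at 36 h (-0.40 ± 0.17, SE, adjusted p = 0.0769) and with BSA at 72 h (-0.46 ± 0.17, adjusted p = 0.0658) did not pass. The BSA 36 h call was lost without 0 h replicate 4 (0.0549) or BSA 36 h replicate 3 (0.0595; range over the alternatives 0.00114 to 0.0595). The FGF10 72 h call was lost without 0 h replicate 4 (0.0587) or FGF10 72 h replicate 4 (0.0507; range 0.00231 to 0.0587). The 2 that did not pass were called without FGF10 36 h replicate 1 (0.0364 for FGF10 at 36 h, range 0.0364 to 0.262, and 0.049 for BSA at 72 h) and, for BSA at 72 h, without FGF10 36 h replicate 4 (0.0206, range 0.0121 to 0.227).

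Cgn had 52.7, 53.1 and 55.0 CPM at 0 h, 43.0, 88.5 and 47.3 CPM with FGF10 and 49.8, 66.6 and 95 CPM with BSA at 36 h, and 49.1, 62.8 and 54.0 CPM with FGF10 and 67.0, 65.3 and 78.5 CPM with BSA at 72 h. It was called in none of the 4 comparisons (log2 0.15, 0.39, 0.04 and 0.39, in the order FGF10 36 h, BSA 36 h, FGF10 72 h and BSA 72 h, each ± 0.25, SE, adjusted p 0.27 to 0.916). The BSA 72 h libraries lay above those at 0 h without overlap, and both 36 h groups spanned the 0 h values. That BSA 72 h difference was called when the other groups were left out of the model (0.0155; range over the alternatives 0.0155 to 0.686).

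**Figure D2:**
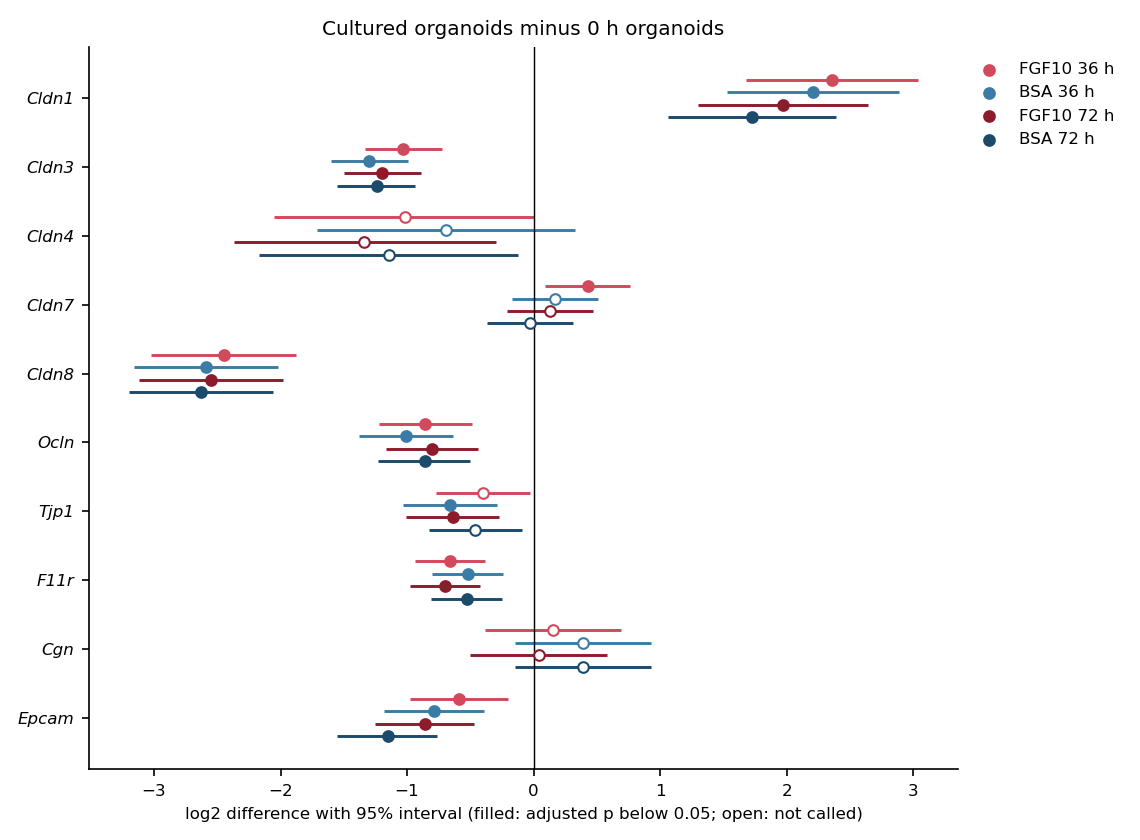
Log2 difference of each cultured group from 0 h (horizontal axis) for the 10 genes, with 95% intervals. Filled points were called and open points were not. Cldn1 lies right of 0 (1.73 to 2.36), Cldn8 farthest left (-2.63 to -2.45), and the intervals of the 4 groups overlap for every gene.

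Markers of cell identity moved over the same comparisons. Of 10 luminal epithelial markers, 6 or 7 were lower than at 0 h in each cultured group and none was higher. Over all tested genes, 12.2% to 19.3% were higher and 13% to 20.5% lower in these comparisons. The summed level of the luminal markers was 12164 to 24435 CPM in cultured libraries, against 27373 to 39154 CPM at 0 h. Krt14, a basal keratin, averaged 4772 ± 296 CPM with FGF10 and 3096 ± 253 CPM with BSA at 36 h and 11960 ± 1670 CPM with FGF10 and 3666 ± 263 CPM with BSA at 72 h, against 793 ± 162 CPM at 0 h (SD, n = 3). Most called basal markers went the other way: of 10, 4 were higher and 5 lower with FGF10 and 3 higher and 6 lower with BSA at 36 h, and 3 higher and 6 lower with FGF10 and 2 higher and 4 lower with BSA at 72 h. The basal sum at 36 h was 12159 to 15159 CPM (FGF10) and 8640 to 9555 CPM (BSA), and at 72 h 20628 to 22765 CPM (FGF10) and 9272 to 11244 CPM (BSA), against 11141 to 16093 CPM at 0 h. The part of these shifts in the changes of the junction genes was not tested. As a description, each junction gene was set against the mean log2 CPM of the luminal keratins Krt8 and Krt18 in its own library. Both keratins were themselves lower in culture: Krt18 averaged 4544 to 6464 CPM in the cultured groups, against 11430 CPM at 0 h, and Krt8 2377 to 3798 CPM, against 4687 CPM. A gene of unchanged CPM is therefore higher than at 0 h on this scale. On that scale the group means of Epcam lay close to that at 0 h, with log2 differences of -0.02 with FGF10 and -0.09 with BSA at 36 h and -0.02 with FGF10 and -0.01 with BSA at 72 h. Cldn8 was lower, at -1.90 with FGF10 and -1.87 with BSA at 36 h and -1.68 with FGF10 and -1.47 with BSA at 72 h. Cldn3 lay between -0.61 and -0.10. Cldn1 was 2.87 to 2.94 higher than at 0 h, Cldn7 0.86 to 1.11 higher and Cgn 0.66 to 1.52 higher, although by CPM Cldn7 was called higher in only 1 of 4 comparisons and Cgn in 0. For Epcam and Ocln the libraries of every cultured group overlapped those at 0 h on this scale, whereas for Cldn1 and Cldn8 none did. With BSA at 72 h, F11r (0.60 higher than at 0 h) and Tjp1 (0.68 higher) lay above all libraries at 0 h on this scale, although their CPM there was below that of all libraries at 0 h.

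**Figure D3:**
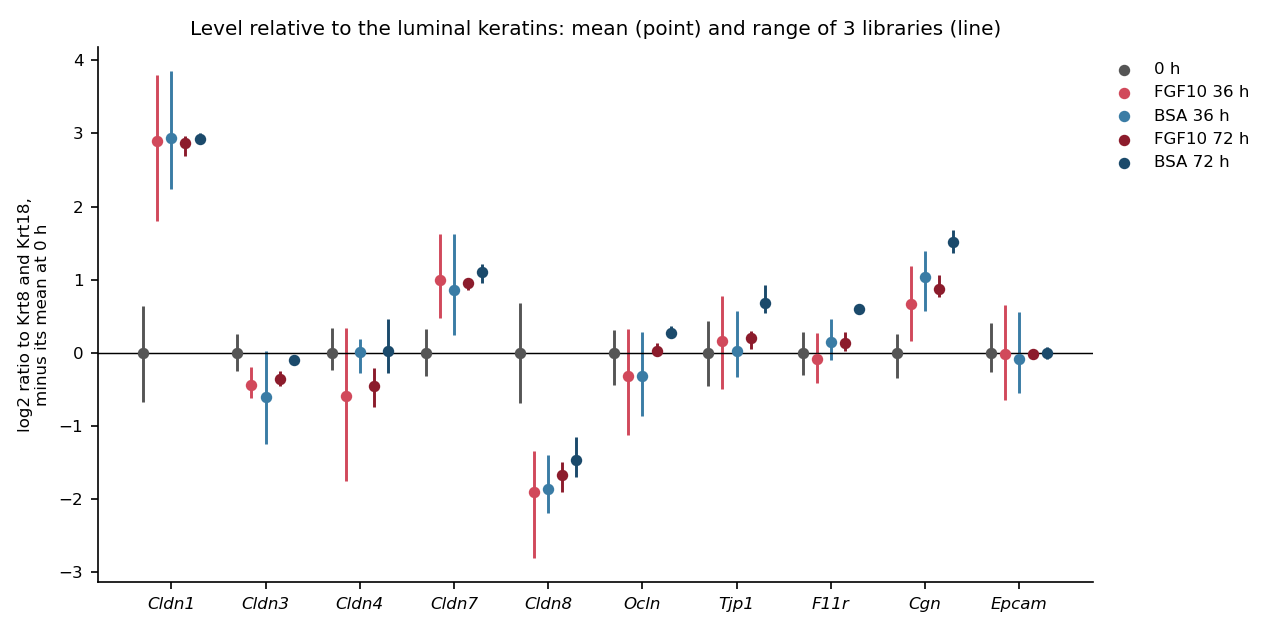
Log2 ratio of each gene to the luminal keratins Krt8 and Krt18 (vertical axis), set to 0 at its mean at 0 h, with the mean (point) and range (line) of 3 libraries for each group. Epcam sits near 0 in all groups, Cldn1 near 2.9, and Cldn8 between -1.9 and -1.47.

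The make-up of the claudin pool changed with them. Reads per kilobase of exon were summed over 24 claudins, and the sum averaged 908 ± 16.1 with FGF10 and 791 ± 41.3 with BSA at 36 h and 798 ± 46.5 with FGF10 and 769 ± 29.5 with BSA at 72 h, against 1582 ± 96.5 CPM per kilobase at 0 h (SD, n = 3). Cldn3 made up 57.5% to 61.5% of this pool in the cultured groups, against 70.7% at 0 h (group means). Cldn7 made up 22.7% to 26.5%, against 11.3%, and its share was above that of every library at 0 h in all 12 cultured libraries. Cldn1 made up 1.25% to 1.7%, against 0.185%, and Cldn8 0.645% to 0.69%, against 2.02%. The 5 claudins described here made up 87.6% to 95% of the pool in any library. Cldn10 was the largest of the rest, at 4.46% to 6.1% in cultured groups, against 8.44% at 0 h. Shares sum to a fixed total and are not independent of one another.

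**Figure D4:**
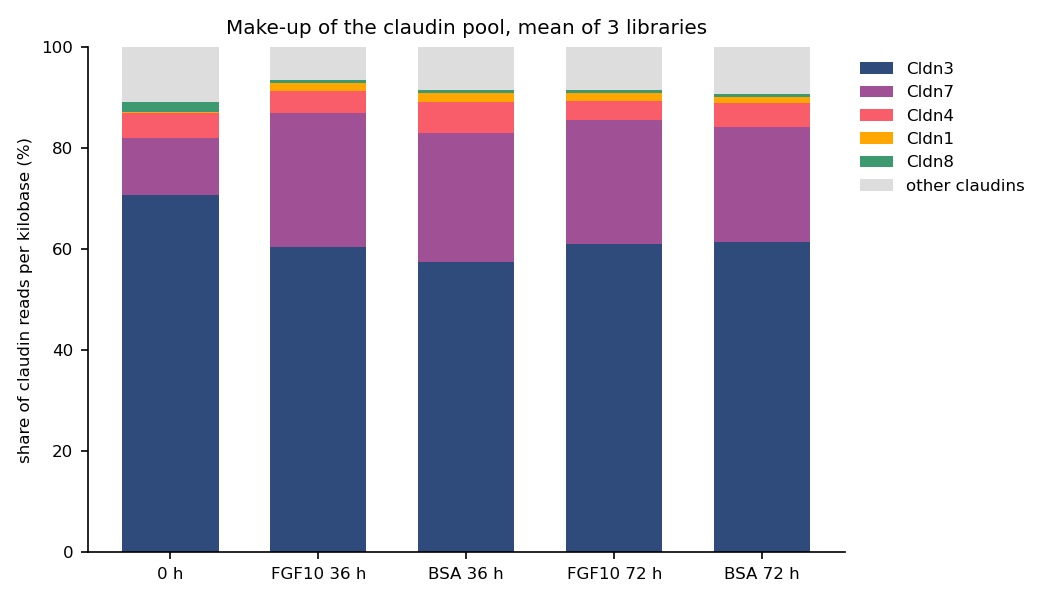
Share of each claudin in the reads per kilobase of all claudins (vertical axis, percent, mean of 3 libraries) in the 5 groups. Cldn3 is the largest block everywhere, and the Cldn7 block is taller in the cultured groups (22.7% to 26.5%) than at 0 h (11.3%).

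By level per kilobase, Epcam, Cldn3, Cldn7, F11r and Cldn4 were the highest 5 in that order in every group, while the order of the other 5 differed between cultured organoids and 0 h. At 0 h, Epcam had 1578 ± 241 and Cldn3 1118 ± 77.3 CPM per kilobase (SD, n = 3), followed by Cldn7 at 179 ± 13.8 and F11r at 167 ± 9.3, whose ranges overlapped. Cldn1 was the lowest at 0 h (2.88 ± 0.975 CPM per kilobase) and took rank 6 in 3 cultured groups and rank 7 with BSA at 72 h. Cldn8 held rank 6 at 0 h (32.0 ± 9.65) and rank 9 in every cultured group (5.17 to 5.86). Tjp1 was the lowest in all 4 cultured groups (2.64 to 3.15).

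None of the 10 genes was called between FGF10 and BSA organoids. At 36 h, 0 of 10 members were called between FGF10 and BSA by edgeR's quasi-likelihood test, where 2.34% of all genes were called (0.954% higher, 1.39% lower), and the log2 differences ran from -0.33 (Cldn4) to 0.27 (Cldn3), with adjusted p of 0.324 to 0.822. At 72 h, 0 of 10 were called, where 5.99% of all genes were called (3.01% higher, 2.98% lower), and the differences ran from -0.35 (Cgn) to 0.29 (Epcam), with adjusted p of 0.361 to 0.891. Averaged over both times, 0 of 10 were called, where 16.1% of all genes were called (7.45% higher, 8.63% lower; adjusted p 0.206 to 0.865). None had an unadjusted p under 0.05 in any of the 3. DESeq2's Wald test also called 0 of 10 in each, and limma voom called 0 at 36 h, 1 at 72 h and 3 in the average.

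These data bound the difference more closely for some genes than for others. For Epcam, the 95% interval of the log2 difference was -0.19 to 0.59 at 36 h and -0.10 to 0.68 at 72 h. Cldn3 had -0.03 to 0.57 at 36 h and -0.26 to 0.34 at 72 h, F11r -0.42 to 0.14 and -0.45 to 0.11, and Ocln -0.21 to 0.52 and -0.31 to 0.42. Cldn7 had -0.08 to 0.59 and -0.18 to 0.50, and Tjp1 -0.11 to 0.62 and -0.55 to 0.19. The intervals were wider for Cgn (-0.78 to 0.30 and -0.89 to 0.19), Cldn8 (-0.42 to 0.70 and -0.47 to 0.64) and Cldn1 (-0.49 to 0.78 and -0.39 to 0.89), and widest for Cldn4 (-1.35 to 0.68 and -1.21 to 0.83).

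At 36 h only Cldn3 had FGF10 and BSA libraries that did not overlap (639 to 775 CPM with FGF10, 494 to 623 CPM with BSA), as did 19.4% of all tested genes. At 72 h this held for 5 members, where it held for 43.7% of all tested genes. Epcam was 1825 to 2065 CPM with FGF10 and 1479 to 1606 CPM with BSA, and Cldn1 48.4 to 61.2 CPM and 45.1 to 47.7 CPM. Tjp1 (19.9 to 21.6 CPM with FGF10, 21.9 to 26.8 CPM with BSA), F11r (252 to 289 CPM and 298 to 312 CPM) and Cgn (49.1 to 62.8 CPM and 65.3 to 78.5 CPM) lay the other way. Under alternatives, Cgn at 72 h was called when the other groups were left out of the model (adjusted p = 0.0197; range 0.0197 to 0.693) and Epcam at 72 h with limma voom (0.049; range 0.049 to 0.665). In the average of both times, limma voom called Cldn1 (0.0462; range 0.0462 to 0.886), Cldn7 (0.0272; range 0.0272 to 0.437) and Epcam (0.00755; range 0.00755 to 0.427). Without FGF10 36 h replicate 4, Ocln (0.042; range 0.042 to 0.87) and Epcam (0.0321) were called in the average, and without FGF10 36 h replicate 3, Cgn was (0.028; range 0.028 to 0.596).

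Markers of other cell types differed between the arms at 72 h. Of 7 immune markers tested 7 were lower with FGF10, of 9 adipocyte markers 5, and of 10 endothelial markers 2, while of 10 basal epithelial markers 3 were higher and 3 lower. Of 10 fibroblast and stromal markers 1 was higher and 0 lower (median log2 -2.4), and their sums overlapped (38.1 to 59.1 CPM with FGF10, 48.7 to 99.1 CPM with BSA). Of all tested genes 2.98% were lower and 3.01% higher in that comparison. The summed level of adipocyte markers was 11.3 to 74.8 CPM with FGF10 and 427 to 434 CPM with BSA, that of immune markers 76.9 to 127 CPM and 336 to 418 CPM, and that of endothelial markers 18.2 to 35.2 CPM and 94.7 to 221 CPM. Basal epithelial markers summed to 20628 to 22765 CPM with FGF10 and 9272 to 11244 CPM with BSA, and luminal ones to 16786 to 18995 CPM and 12164 to 13474 CPM. A few keratins carried much of these gaps. Krt14 averaged 11960 CPM with FGF10 and 3666 CPM with BSA, Krt5 3044 and 1286 CPM, and Krt19, a luminal one, 7907 and 4564 CPM. Of 10 luminal markers, 1 was called higher with FGF10 and 1 lower. The part of all these markers in the FGF10 and BSA levels of the junction genes was not tested.

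**Figure D5:**
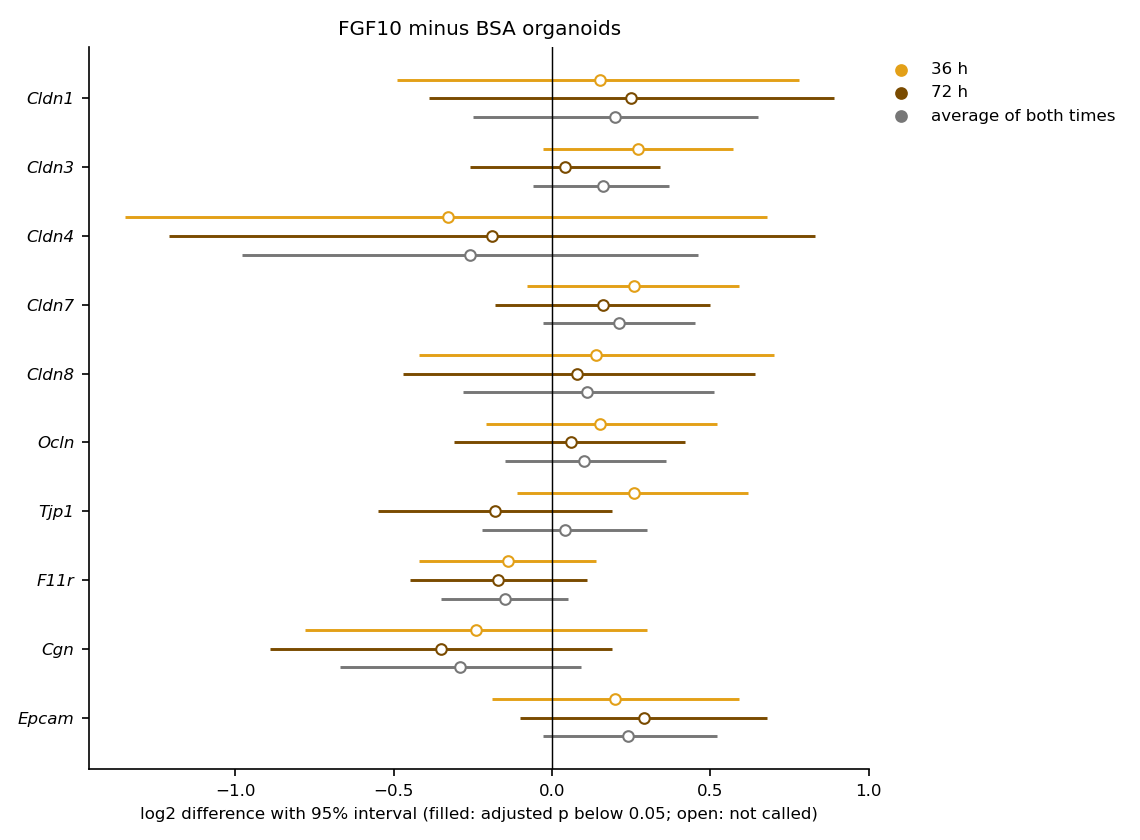
Log2 difference of FGF10 from BSA organoids (horizontal axis) at 36 h, at 72 h and averaged over both times for the 10 genes, with 95% intervals. All points are open (not called), lie between -0.35 and 0.29, and have intervals that include 0.

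No change of the FGF10 difference between the times was called. In the test of that change, 0 of 10 members were called by edgeR, DESeq2 or limma voom and none had an unadjusted p under 0.05, with log2 values of -0.44 (Tjp1, 95% interval -0.96 to 0.09) to 0.14 (Cldn4) and adjusted p of 0.909 to 0.992. Over all tested genes 0.0% were called by edgeR, while 998 had an unadjusted p under 0.05 and DESeq2 called 18. Between 36 h and 72 h within an arm, 0 of 10 members were called with FGF10 (1.91% of all genes, 1.42% higher and 0.491% lower; log2 -0.38 to 0.05) and 0 of 10 with BSA (0.469% of all genes, 0.325% higher and 0.143% lower; log2 -0.48 to 0.20), none had an unadjusted p under 0.05, and DESeq2 called none. Libraries of the times did not overlap for 0 members with FGF10 (21.1% of all genes) and 3 with BSA, namely Cldn1, Ocln and Epcam (30.7%). The largest of these differences was Cldn1 with BSA (-0.48 ± 0.30, SE, adjusted p = 0.442), with 47.0, 47.7 and 45.1 CPM at 72 h and 82.0, 52.9 and 60.5 CPM at 36 h. Limma voom called Epcam in the BSA arm (0.0477; range over the alternatives 0.0477 to 0.59), and Cldn1 (0.0441; range 0.0441 to 0.904) and Epcam (0.0492; range 0.0492 to 0.827) in the FGF10 arm.

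The promoter letters of 4 of these genes are given to set the gene that rose beside genes that fell together. They are the 250 bases before the annotated start, read 5′ to 3′ on the gene's strand, from RefSeq on build GRCm38.p6, which is not the build of the count table (GRCm39). Capitals mark CAGGTG or its reverse complement CACCTG, the E-box bound by Snail-type repressors, and TGANTCA, the AP-1 motif (N is any base). The Cldn1 window is chr16:26371840-26372089 (minus strand), the Cldn3 window chr5:134985964-134986213 (plus strand), the F11r window chr1:171437311-171437560 (plus strand) and the Epcam window chr17:87635729-87635978 (plus strand).
Cldn1: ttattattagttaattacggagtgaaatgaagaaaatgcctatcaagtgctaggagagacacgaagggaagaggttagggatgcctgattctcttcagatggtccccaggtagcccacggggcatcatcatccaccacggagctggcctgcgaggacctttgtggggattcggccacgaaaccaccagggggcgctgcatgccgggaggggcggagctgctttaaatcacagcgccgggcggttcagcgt
Cldn3: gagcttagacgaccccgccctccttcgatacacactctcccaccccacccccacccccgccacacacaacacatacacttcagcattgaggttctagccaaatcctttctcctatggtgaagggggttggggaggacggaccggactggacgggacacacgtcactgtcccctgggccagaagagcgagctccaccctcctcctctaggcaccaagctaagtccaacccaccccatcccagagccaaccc
F11r: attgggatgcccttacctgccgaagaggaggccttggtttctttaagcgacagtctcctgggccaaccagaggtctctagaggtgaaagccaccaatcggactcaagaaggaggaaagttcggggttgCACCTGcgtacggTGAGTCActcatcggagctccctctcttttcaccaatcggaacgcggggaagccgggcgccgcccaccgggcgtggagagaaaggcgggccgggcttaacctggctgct
Epcam: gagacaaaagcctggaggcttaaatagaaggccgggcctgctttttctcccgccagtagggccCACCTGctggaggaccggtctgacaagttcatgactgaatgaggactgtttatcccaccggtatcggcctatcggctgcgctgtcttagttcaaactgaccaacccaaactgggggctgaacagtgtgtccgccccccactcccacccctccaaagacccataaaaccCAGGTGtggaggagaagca
The Epcam window held the E-box 2 times and the F11r window 1 time, beside 1 AP-1 motif in F11r, and the Cldn1 and Cldn3 windows held neither. Of the 9 members with a window (Cldn8 had none), 5 held the E-box on either strand in at least 1 window, namely Cldn4, Cldn7, Ocln, F11r and Epcam, against 19.4% of 27025 genes. AP-1 stood in those of Cldn4 and F11r, against 7.8% of genes. The grainyhead motif AACNNGTT was in Cgn alone, against 4.1% of genes, and the ETS motif CCGGAAGT in Cldn7 alone, against 3.2%. Each was searched on both strands, and the 4 motifs did not overlap one another in these windows. Of the 5 with the E-box, Ocln, F11r and Epcam were lower than at 0 h in all 4 comparisons. Cldn4 was called in 0 of the 4, and Cldn7 was called higher in 1 and lower in 0. Cldn3, without the E-box, was lower in all 4. A match is a string of letters and not a measured site, and its part in these changes was not tested.

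In the files' own coordinates (GRCm39), Cldn3 (chr5:135015068-135016326, plus strand) and Cldn4 (chr5:134973973-134975788, minus strand) both lie on chromosome 5, and each is listed with 1 exon. Cldn1 (chr16:26175392-26190591) and Cldn8 (chr16:88357716-88360071), the genes that moved furthest in opposite directions, both lie on the minus strand of chromosome 16. The others span chr11:69855605-69858711 (Cldn7), chr13:100633015-100689226 (Ocln), chr7:64945913-65177529 (Tjp1), chr1:171265103-171292171 (F11r), chr3:94667376-94693826 (Cgn) and chr17:87943407-87958557 (Epcam).

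Other junction genes were counted over lists drawn up by function, and the median of all tested genes lay between -0.02 and 0.01. Of 18 other claudins, 7 passed the filter, of which 0 or 1 were higher and 2 to 4 lower than at 0 h in each cultured group (median log2 -1.31 to -0.45; all genes 12.2% to 19.3% higher, 13% to 20.5% lower). Cldn10, the largest of them, was lower in all 4 comparisons with 0 h, at 105 ± 32.7 CPM with FGF10 and 124 ± 45.9 CPM with BSA at 36 h and 112 ± 9.89 CPM with FGF10 and 99.7 ± 8.4 CPM with BSA at 72 h, against 343 ± 98.2 CPM at 0 h (SD, n = 3; 2.78- to 3.44-fold, adjusted p 4.9e-04 to 0.0019). Cldn2, which forms a cation pore, was higher than at 0 h with BSA at 36 h (3.17-fold, adjusted p = 0.00422) and at 72 h (3.75-fold, 0.00173) and with FGF10 at 72 h (2.75-fold, 0.00897). At 36 h it averaged 2.06 ± 0.833 CPM with FGF10 and 6.29 ± 1.25 CPM with BSA, a fall of 3.03-fold (log2 -1.60 ± 0.37, SE, adjusted p = 0.0358). That call was lost without BSA 36 h replicate 2 (0.102) or 3 (0.0765), BSA 72 h replicate 2_1 (0.0599), FGF10 72 h replicate 3 (0.0539), FGF10 36 h replicate 1 (0.116) or 4 (0.0642), and in 2 other alternatives (range 0.0018 to 0.116). It held in all 23 for the average over both times (2.03-fold lower with FGF10, adjusted p = 0.0156). The claudins counted as lower than at 0 h include Cldn5, which is also among the endothelial markers. Cldn5 was lower with BSA at 36 h (0.327 CPM) and with FGF10 at 36 h (0.0998 CPM) and 72 h (0.642 CPM), against 9.65 CPM at 0 h. With BSA at 72 h it averaged 11.7 CPM. Its 3 calls were lost under 2, 1 and 7 of 23 alternatives, in that order.

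Among 14 other junction membrane proteins, 1 was higher and 3 to 7 lower than at 0 h, depending on the group (median log2 -0.59 to -0.33; all genes 12.2% to 19.3% higher, 13% to 20.5% lower). The gene that rose was Pvr, a nectin-like adhesion receptor, at 18 ± 4.68 CPM with FGF10 and 17.8 ± 0.36 CPM with BSA at 36 h and 13.8 ± 0.935 CPM with FGF10 and 16.1 ± 0.861 CPM with BSA at 72 h, against 6.06 ± 0.638 CPM at 0 h (adjusted p 1.1e-05 to 1.2e-04). Nectin2, an adhesion receptor of the adherens junction, fell 1.75- to 2.42-fold (adjusted p 3.7e-06 to 2.2e-04). Between FGF10 and BSA, 0 of 14 were called at 36 h (2.34% of all genes). At 72 h 1 was (5.99%), Nectin2, 1.38-fold lower (adjusted p = 0.0395, lost under 9 of 23 alternatives). In the average (16.1% of all genes), Nectin1 was higher (0.0164, lost under 1). Jam2 (0.0208, lost under 7), Marveld3 (0.0447, lost under 13) and Esam (0.0476, lost under 16) were lower. Esam averaged 22.3 CPM with BSA at 72 h, against 1.11 to 4.61 CPM in the other cultured groups. Jam2 averaged 8.78 CPM there, against 1.29 to 2.62 CPM. The endothelial sum was also highest there among cultured groups, and the part of endothelial cells was not tested. With BSA 36 h replicate 2 left out, the Esam log2 difference of -2.97 became -2.09. It was -4.49 when FGF10 72 h replicate 2 was dropped. Of 18 junction scaffolds, 1 or 2 were higher and 1 to 3 lower in each cultured group (median log2 -0.22 to -0.14), against 12.2% to 19.3% higher and 13% to 20.5% lower over all genes. Ybx3, which encodes ZONAB, the Y-box factor that binds ZO-1, averaged 366 ± 23.7 CPM with FGF10 and 254 ± 35.5 CPM with BSA at 36 h and 273 ± 45.0 CPM with FGF10 and 170 ± 5.33 CPM with BSA at 72 h. In the average over both times Ybx3 was 1.52-fold higher with FGF10 (adjusted p = 0.00153). Magi3 and Arhgap17 were 1.43-fold and 1.66-fold lower (0.00842 and 0.00618), and these 3 held under all 23 alternatives. They were the only scaffolds of the 18 called in the average (1 higher, 2 lower), close to the 16.1% of all genes. At 36 h 0 of the 18 were called between the arms (2.34% of all genes), and at 72 h 1 was higher and 1 lower (5.99%).

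Of 11 partners and proteases of EpCAM, 1 or 2 were higher and 3 or 4 lower than at 0 h (median log2 -0.35 to 0.04; all genes 12.2% to 19.3% higher, 13% to 20.5% lower). Cd44, a hyaluronan receptor reported in complexes with EpCAM, rose 4.86- to 5.17-fold in all 4 comparisons, at 132 ± 20.2 CPM with FGF10 and 126 ± 40.9 CPM with BSA at 36 h and 125 ± 10 CPM with FGF10 and 128 ± 11.5 CPM with BSA at 72 h, against 25.5 ± 4.34 CPM at 0 h (SD, n = 3; adjusted p 1.7e-06 to 2.7e-06). Prss8, which encodes the membrane protease prostasin, fell 1.65- to 2.13-fold (adjusted p 2.0e-04 to 0.00536). Fhl2, a LIM protein reported to bind the intracellular part of EpCAM, was the only gene of the list called between FGF10 and BSA at both times, being 2.01-fold higher with FGF10 at 36 h (adjusted p = 0.00666) and 2.06-fold higher at 72 h (0.00406). Fhl2 averaged 58.8 ± 1.45 CPM with FGF10 and 29.3 ± 2.29 CPM with BSA at 36 h, and 39.3 ± 8.22 CPM with FGF10 and 19.1 ± 1.15 CPM with BSA at 72 h. These calls of Cd44, Prss8 and Fhl2 held under all 23 alternatives. Fhl2 was the only 1 of the 11 called at 36 h (2.34% of all genes) and at 72 h (5.99%). In the average over both times 2 of 11 were higher and 0 lower, where 16.1% of all genes were called. They were Fhl2 and Cd9, which was 1.42-fold higher with FGF10 (adjusted p = 0.0175, kept under all 23).

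The genes whose levels followed each member most closely were found by Pearson's r of log2 CPM over the 15 libraries, among 8857 genes of at least 10 CPM on average. For Cldn8 they were Fgfr2, an FGF10 receptor (r = 0.976), Scnn1a, a subunit of the epithelial sodium channel (0.971), and Inpp5b (0.97). The 3 libraries at 0 h stand apart and carry much of such a value: over the 12 cultured libraries alone the same r were 0.573, 0.61 and 0.735. Cldn3 was closest to the immediate early gene Ier2 (0.979; 0.871 over the cultured libraries), and Cldn1 to Il1rn, which encodes the interleukin-1 receptor antagonist (0.954; 0.739). Ocln was closest to Lpp (0.965; 0.871), F11r to Tlcd4 (0.962; 0.835), Epcam to Adss (0.949; 0.869) and Tjp1 to Tob1 (0.951; 0.942). The least alike were Cldn4 with Huwe1 (0.901; 0.89), Cldn7 with Arl5a (0.877; 0.911) and Cgn with Bcar1 (0.829; 0.852). These are descriptions over libraries that share depth and composition, and no gene's closeness was tested.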

How the data were processed

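RNA of mouse mammary organoids was sequenced from libraries made with a stranded mRNA kit, per the labels' protocols. The authors deposited raw fragment counts per gene. Per the file headers, featureCounts 2.0.1 made them: pairs were counted over exons by gene name, without strand and without reads that matched several places. The submitters' processing notes list FastQC, cutadapt 1.9.1, HISAT2 2.2.1, HTSeq, DESeq2 and GRCm39; where the notes name HTSeq, the headers were followed. Exon length per gene is the deposited table's own. Samples were grouped by the treatment label; the titles of the FGF10 72 h libraries write FGF0.

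Totals ran from 11965322 to 24261233 counts per library. Of 54456 genes, filterByExpr (edgeR 4.0.16, R 4.3.3; minimum count 10, minimum total 15) left 18140. Counts were TMM-scaled and fitted with edgeR's robust quasi-likelihood model to all 5 groups (residual degrees of freedom 10, common BCV 0.234). A call needs an adjusted p (Benjamini-Hochberg, all tested genes) under 0.05; the script was tested on simulated data. Each SE was obtained by dividing the absolute log2 value by F's square root. In all, 23 alternatives were tried: leaving out each of 15 libraries, scaling by DESeq2's factors, keeping every gene, keeping genes with 10 counts or more in 3 libraries, blocking by replicate number, summing BSA 72 h replicates 2_1 and 2_2, leaving the other groups out of the model, sample-weighted limma voom (3.58.1) and the Wald test of DESeq2 (1.42.0).

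The members and lists were chosen with earlier results of these data known. All 10 members are given; from other lists, called genes with the smallest p (up to 3 per direction and comparison) could be named. Closeness used log2 CPM with a prior count of 2. Replicates 2_1 and 2_2 had a chi-square per gene of 4.32 on average, where that group's remaining pairs had 9.58 and 11.7, and were kept apart. Protein sequences and the Cldn8 promoter were not analysed here.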

Additional observations from a re-analysis of the deposited data

How the results depend on the processing

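Over the 100 member results and 23 alternatives, 2245 of 2300 values kept their side of the threshold, 23 lost a call and 32 gained one. In 0 cases was a called direction turned round. The 2245 include 67 values that changed sign, each not called in the main analysis or under the alternative. The number of members called was within 1.5 times of the reported one, except in 7 cases with 0 reported. For FGF10 against BSA at 72 h it was 1 with the other groups left out of the model and 1 with limma voom. Averaged over both times it was 3 with limma voom and 0 to 2 without 1 library (1 without FGF10 36 h replicate 3, 2 without FGF10 36 h replicate 4). Between 72 h and 36 h, limma voom called 1 member with BSA and 2 with FGF10. The cause was not tested. Without 1 library, the number called against 0 h was 5 to 7 with FGF10 and 6 to 7 with BSA at 36 h, and 6 to 8 with FGF10 and 6 to 7 with BSA at 72 h; without FGF10 36 h replicate 4 the counts were 7, 7, 8 and 7.

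Counts over all genes moved more. FGF10 against BSA called 425 genes at 36 h (78 with the other groups left out of the model, 1460 with limma voom, 127 to 852 without 1 library) and 1087 at 72 h (148 without FGF10 72 h replicate 4, 5025 with the other groups left out of the model). With BSA 72 h replicates 2_1 and 2_2 summed, the 72 h comparison called 135 genes higher and 142 lower, against 546 and 541 with them apart. The averaged difference called 2918 (1434 without FGF10 72 h replicate 4, 5598 with limma voom). Between 72 h and 36 h, 346 genes were called with FGF10 (99 without FGF10 72 h replicate 2, 862 with limma voom) and 85 with BSA (0 with 2_1 and 2_2 summed, 2683 with limma voom). FGF10 at 36 h against 0 h called 7225 (3847 with the other groups left out of the model). In the other lists, 160 of 1380 counts moved by over 1.5 times, and 228 of 2668 values of named genes lost their call.

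With the replicate number as a block, the members called against 0 h were 6 with FGF10 and 7 with BSA at 36 h and 8 with FGF10 and 7 with BSA at 72 h, and 0 between FGF10 and BSA at either time, in their average, in its change and between the times. The numbers were not taken as pairing, since no label says that they mark a shared source and not every same-numbered pair deviated together: of 21 same-numbered pairs, 9 had a correlation of deviations over 0.1 (-0.158 to 0.449, median 0.027, against -0.012 for other pairs), and 9 of 15 libraries correlated best with their own number, a hint from the data and not the design. Both pairs of FGF10 36 h with BSA 36 h (0.449 and 0.286) and both of BSA 36 h with 0 h (0.169 and 0.225) were over 0.1. The groups hold 3 libraries each, so differences within the intervals given could not be resolved, and the wide spread of Cldn4 and Cgn limits what can be said of them. Every member had at least 110 counts in every library.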

Other observations

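Of 16 genes of apical polarity, the machinery that places the tight junction, 1 or 2 were higher and 2 or 3 lower than at 0 h in each cultured group (median log2 -0.04 to 0.13; edgeR), close to or below the shares of all tested genes (12.2% to 19.3% higher, 13% to 20.5% lower). Prkci, the atypical protein kinase C of the PAR complex, averaged 39.2 ± 9.23 CPM with FGF10 and 38.8 ± 1.6 CPM with BSA at 36 h and 40.2 ± 3.93 CPM with FGF10 and 40.3 ± 0.319 CPM with BSA at 72 h, against 68.5 ± 10.1 CPM at 0 h (SD, n = 3; 1.7- to 1.76-fold lower, adjusted p 0.00106 to 0.00222). Pard6g, which encodes a PAR6 scaffold, was 1.8- to 2.07-fold higher (adjusted p 0.00261 to 0.00955), a call lost for BSA at 36 h when the other groups were left out of the model (0.0504, range 4.8e-04 to 0.0504).

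Of 14 transcription factors of epithelial identity, 6 were lower than at 0 h in each cultured group and 1 or 2 higher (median log2 -0.62 to -0.21; all tested genes 12.2% to 19.3% higher, 13% to 20.5% lower). Foxa1, a luminal pioneer factor, averaged 108 ± 38.1 CPM with FGF10 and 124 ± 49.4 CPM with BSA at 36 h and 97.7 ± 6.32 CPM with FGF10 and 109 ± 4.75 CPM with BSA at 72 h, against 517 ± 109 CPM at 0 h. Elf3, an ETS factor of epithelia that is also among the luminal markers, fell 4.78-fold with FGF10 at 72 h and 2.49-fold with BSA at 72 h. Between the arms at 72 h Elf3 averaged 31.8 ± 3.39 CPM with FGF10 and 60.9 ± 3.91 CPM with BSA (1.92-fold lower, adjusted p = 0.00944), a call lost without FGF10 72 h replicate 4 (0.0663, range 1.1e-05 to 0.0663). In the average over both times Elf3 was 1.64-fold lower with FGF10 (adjusted p = 0.00206), and Grhl3, a grainyhead factor of surface epithelia, was 2.23-fold higher (adjusted p = 0.011). Klf5 was 1.31-fold higher (0.00606). These 3 calls held under all 23 alternatives. Of the 14 factors, 2 were higher and 1 lower in the average, where 16.1% of all genes were called (7.45% higher, 8.63% lower). At 36 h only Klf5 was called (2.34% of all genes), 1.39-fold higher with FGF10 (adjusted p = 0.0394). That call was lost under 15 of 23 alternatives (range 9.0e-04 to 0.198). At 72 h only Elf3 was called (5.99% of all genes).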
